A study of Homo sapiens with 34 samples.

Results

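The Sprouty genes SPRY1, SPRY2 and SPRY4, the SPRED genes SPRED1, SPRED2 and SPRED3, and the dual-specificity phosphatase genes DUSP4, DUSP5 and DUSP6 are 9 of 19970 protein-coding gene records on chromosomes 1 to 22 and X. They were chosen by the SOX2 and RBPJ peaks of these same lists near them, the SOX2 site kept with NOTCH1-ICD included, so their peak counts and the site kept in the SOX2 list of cells with NOTCH1-ICD are given as a description, with no test. A peak was counted for a gene when its summit, the base with most fragments, lay in the gene body or within 50 kb of the transcription start site (TSS), the 5′ end of the GENCODE gene record. Of 290228 peaks on these chromosomes, 272 met that rule, and no peak was counted for more than 1 of the genes.

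Binding was measured by ChIP-seq (sequencing of DNA that antibodies precipitate with chromatin) in MB157, a triple-negative breast cancer cell line, and in MB157R, its resistant derivative obtained by 25 weeks of culture with 1 µM of the γ-secretase inhibitor (GSI) LY3039478. γ-secretase releases the NOTCH1 intracellular domain (NOTCH1-ICD), which acts on DNA through RBPJ. MB157R cells carried the empty vector (iEV) or an inducible NOTCH1 construct without the extracellular domain, which the authors call N1-ICD (iN1-ICD). MB157 cells carried inducible HA-tagged SOX2 (iSOX2) or iEV, and expression was induced with 1 µg/ml doxycycline for 72 h. RBPJ was precipitated in all 4 conditions, SOX2 in both MB157R conditions and the HA tag in both MB157 conditions. Of 34 libraries, 22 were immunoprecipitations (8 groups) and 12 were inputs (4 groups), and each group had 3 libraries except the HA control of MB157 iEV, with 1.

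Growth factor receptors with tyrosine kinase activity switch on RAS, then the kinases RAF, MEK and ERK. Cells limit this cascade with inhibitors whose genes are themselves induced by ERK signalling. Sprouty proteins act between the receptor and RAF, SPRED proteins recruit the RAS-inactivating protein neurofibromin to the membrane, and the phosphatases DUSP4, DUSP5 and DUSP6 remove phosphate from ERK, DUSP4 and DUSP5 in the nucleus and DUSP6 in the cytoplasm. SOX2 is a transcription factor that binds DNA through its high mobility group domain.

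Each group was represented by 1 list of peaks called on its pooled libraries, so there was no spread between replicates, and intervals below (95%) cover counting error alone. A summit's value is its fold enrichment, (fragments + 1)/(background + 1), and the number of fragments behind it was recovered from the fold and its p-value for every peak. The background expected across the genome was 1.60 to 2.24 fragments in the 7 lists of 3 libraries, and the weakest peaks rested on 8 fragments in 6 of these lists and on 11 in the SOX2 list of MB157R iN1-ICD. Where no peak is reported, a weaker signal was not detectable at this depth. The HA control, with 77 peaks in all, had none at the 9 genes, while 0.551% of all genes had one.

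In MB157R iEV cells, SOX2 had 44 of its 37963 peaks at the 9 genes and RBPJ 58 of 46601. At least 1 SOX2 peak lay at 8 of the 9 genes, all but SPRED3, against 75.7% of all genes, and RBPJ peaks lay at 9 of 9, against 87.1%. HA-SOX2 of MB157 iSOX2 cells had 64 of 108203 peaks, at 8 of 9 genes, all but SPRY2, against 92.4% of all genes. RBPJ had 50 of 37297 peaks in MB157R iN1-ICD cells, at 9 genes (80.8% of all genes), 34 of 34521 in MB157 iSOX2 cells, at 9 genes (84.4%), and 21 of 25243 in MB157 iEV cells, at 8 genes (75.1%). SOX2 of MB157R iN1-ICD cells had 1 of 323 peaks, at SPRY1, and 1.41% of all genes had such a peak. Having a peak is thus common among genes in all lists but those of SOX2 with NOTCH1-ICD and the HA control.

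**Figure D1:**
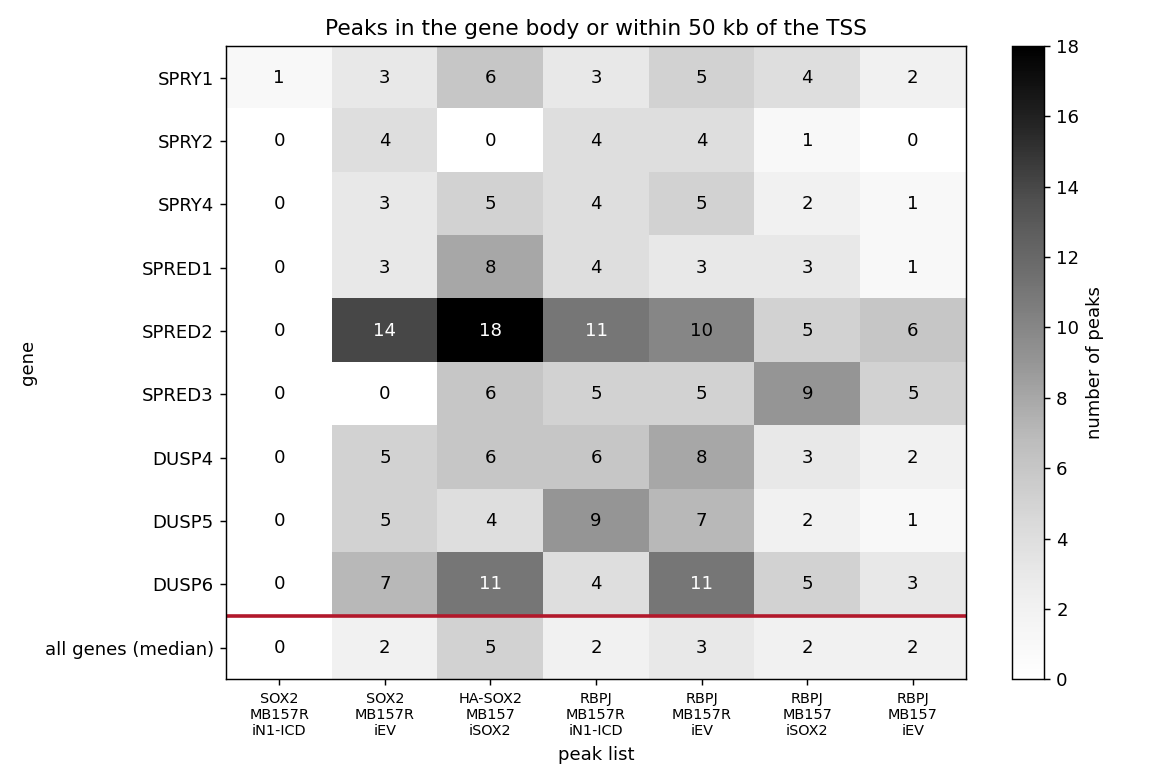
Number of peaks at each of the 9 genes (rows) in each pooled list (columns), with the median over all 19970 protein-coding genes in the bottom row; the grey scale gives the number of peaks. SPRED2 had the most peaks, up to 18, SPRED3 had 0 for SOX2 in MB157R, and SPRY2 had 0 for HA-SOX2 and for RBPJ of MB157 iEV.

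The median was 4 SOX2 peaks per gene in MB157R iEV, against 2 over all genes, and 6 HA-SOX2 peaks against 5. For RBPJ, the medians were 4 in MB157R iN1-ICD, 5 in MB157R iEV, 3 in MB157 iSOX2 and 2 in MB157 iEV, and those of all genes were 2, 3, 2 and 2. The mean window at the 9 genes was 114 kb, and the median window over all genes was 100 kb, which are unlike measures. Only SPRED1 (154 kb) and SPRED2 (172 kb) had windows above 100 kb. Per 100 kb of window, the 9 genes had 4.29 SOX2 peaks in MB157R iEV, and all genes had 1.74. They had 6.24 HA-SOX2 peaks per 100 kb, against 4.54. For RBPJ, they had 5.65 peaks per 100 kb in MB157R iEV, against 3.02 over all genes, and 2.05 in MB157 iEV, against 1.82. SPRED2 alone, a gene of 121787 bp, held 14 of the 44 SOX2 peaks.

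**Figure D2:**
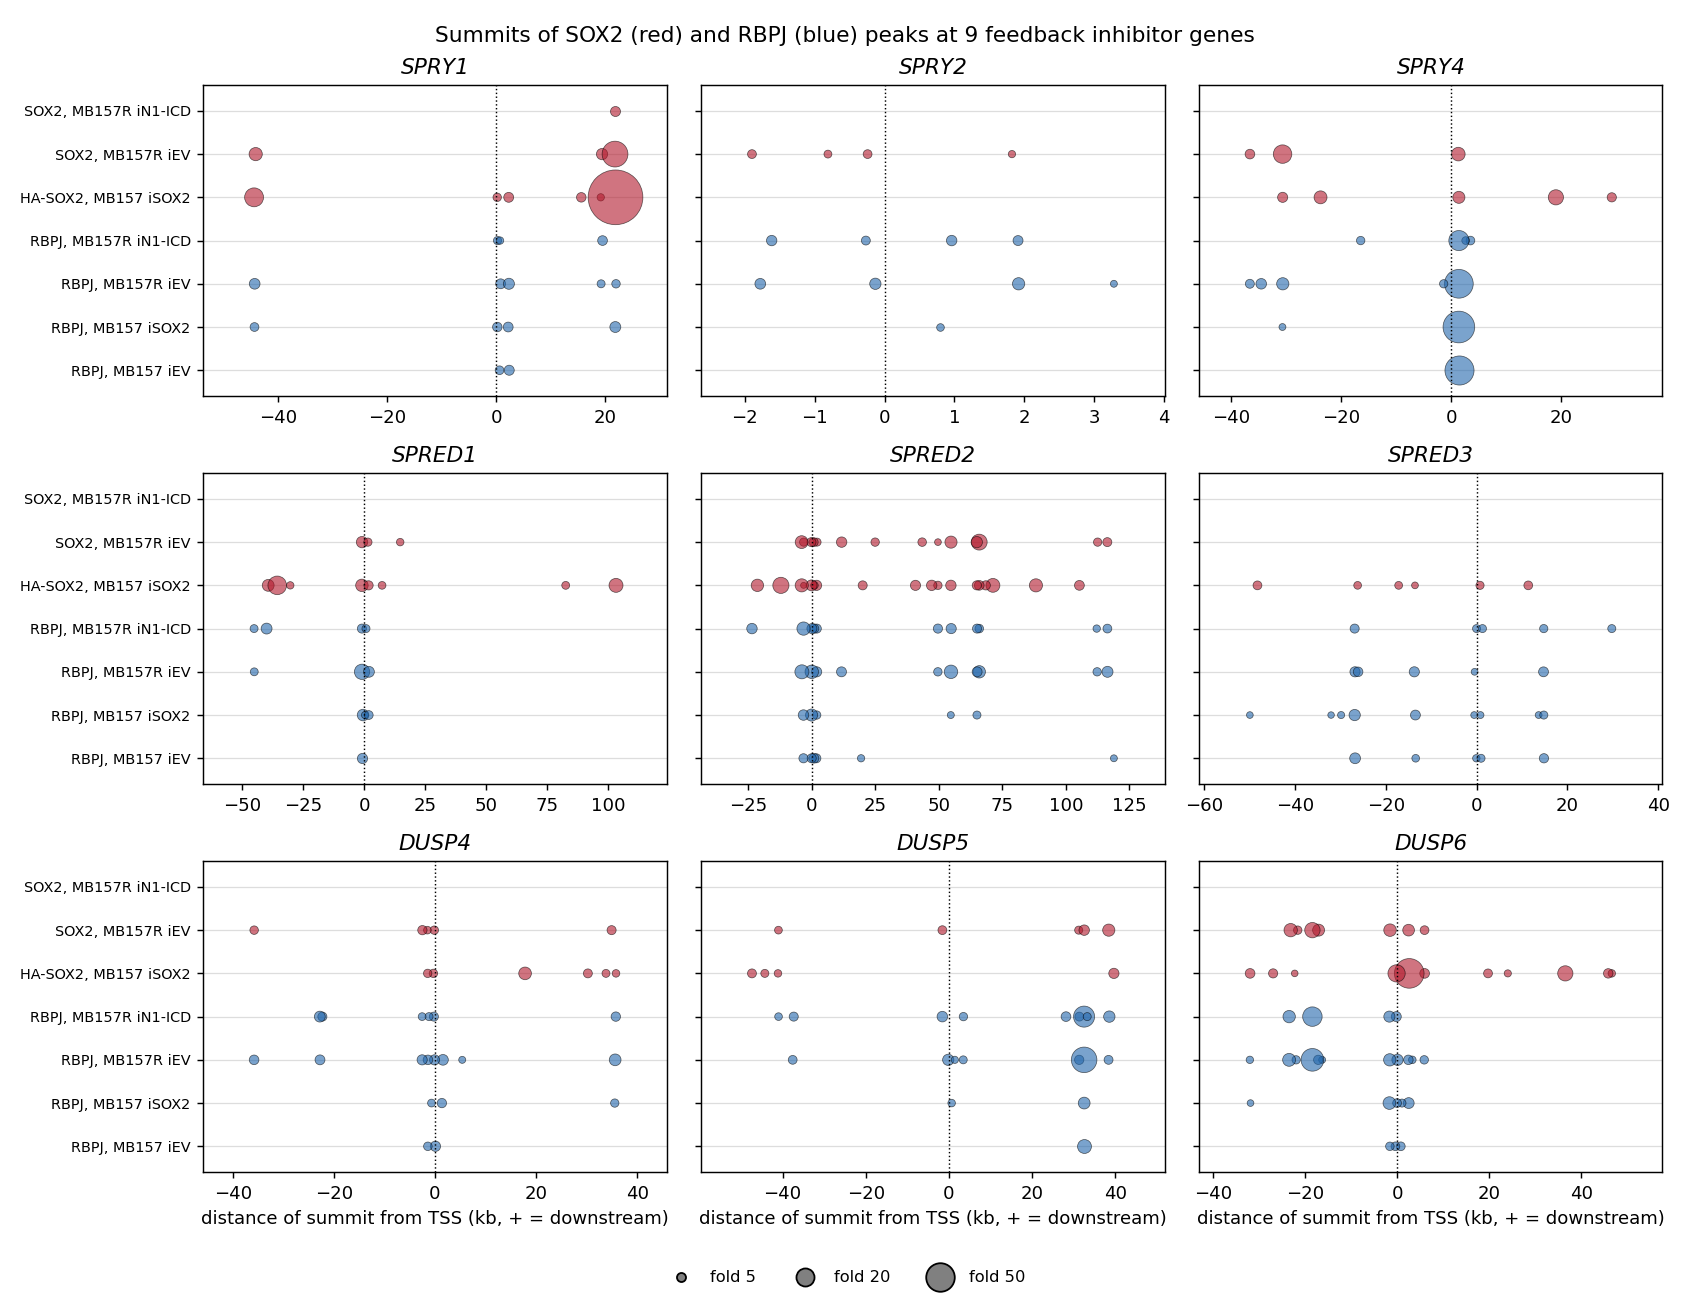
Position of each summit relative to the TSS (x axis, kb, positive downstream) in the 7 lists (rows, SOX2 and HA-SOX2 in red, RBPJ in blue), 1 panel per gene; the area of a point is proportional to fold enrichment. The largest points are HA-SOX2 at SPRY1 +21.8 kb (fold 184), RBPJ of MB157 iSOX2 at SPRY4 +1.4 kb (61.5) and HA-SOX2 at DUSP6 +2.6 kb (54.0).

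RBPJ sat at nearly all promoters of the family, SOX2 at fewer. Within 1 kb of the TSS, a SOX2 peak of MB157R iEV was present at SPRY2, SPRED1, SPRED2 and DUSP4 (4 of 9, against 21.8% of all genes), and an HA-SOX2 peak at SPRY1, SPRED1, SPRED2, SPRED3, DUSP4 and DUSP6 (6 of 9, against 34.0%). RBPJ had a promoter peak at 7 of 9 genes in MB157R iN1-ICD (43.0% of all genes), 8 in MB157R iEV (56.1%), 8 in MB157 iSOX2 (50.4%) and 6 in MB157 iEV (38.0%). SOX2 of MB157R iN1-ICD had none (0.0751% of all genes). The one gene without any promoter peak by this measure was SPRY4, whose strongest RBPJ summit lay 20 bp upstream of the start of its canonical transcript, inside the longer gene record. Measured from the canonical start, which was tried after the data were seen, the counts were 5 of 9 for SOX2 (22.9% of all genes), 7 for HA-SOX2 (35.3%), and for RBPJ 8 in MB157R iN1-ICD (45.6%), 9 in MB157R iEV (59.6%), 9 in MB157 iSOX2 (53.6%) and 7 in MB157 iEV (40.3%), with 0 for SOX2 of MB157R iN1-ICD (0.0801%).

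The sequence at the summit is shown for 7 sites that carry the strongest binding described below: the 3 strongest SOX2 sites of MB157R iEV (at SPRY1, where SOX2 was called again with NOTCH1-ICD, at SPRY4 -30.6 kb and at SPRED2), the 3 strongest RBPJ sites of MB157R iEV and the strongest HA-SOX2 site at a DUSP gene. Each line gives 201 bp of the plus strand of hg38 centred on the summit (of SOX2 in MB157R iEV for SPRY1, SPRY4 -30.6 kb and SPRED2, of RBPJ in MB157R iEV for SPRY4 +1.4 kb, DUSP5 and DUSP6 -18.4 kb, and of HA-SOX2 for DUSP6 +2.6 kb). Capitals mark matches to a SOX word (ACAATG or ACAAAG), the RBPJ word (TGGGAA), an AP-1 word (TGACTCA) or an ETS word (CCGGAAG) on either strand.
SPRY1 +21.8 kb, chr4:123418478-123418678: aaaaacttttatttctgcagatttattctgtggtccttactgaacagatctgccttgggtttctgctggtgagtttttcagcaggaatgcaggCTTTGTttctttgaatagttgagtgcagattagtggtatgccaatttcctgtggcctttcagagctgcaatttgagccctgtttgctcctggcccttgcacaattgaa
SPRY4 +1.4 kb, chr5:142324942-142325142: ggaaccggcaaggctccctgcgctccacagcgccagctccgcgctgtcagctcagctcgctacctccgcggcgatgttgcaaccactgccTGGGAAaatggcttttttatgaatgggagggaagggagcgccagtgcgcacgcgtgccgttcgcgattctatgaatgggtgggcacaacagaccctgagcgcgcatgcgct
SPRY4 -30.6 kb, chr5:142356961-142357161: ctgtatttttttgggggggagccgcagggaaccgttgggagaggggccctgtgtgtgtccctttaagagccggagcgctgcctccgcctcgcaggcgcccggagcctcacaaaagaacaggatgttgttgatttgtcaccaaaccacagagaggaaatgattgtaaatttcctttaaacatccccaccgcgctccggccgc
DUSP5 +32.5 kb, chr10:110530316-110530516: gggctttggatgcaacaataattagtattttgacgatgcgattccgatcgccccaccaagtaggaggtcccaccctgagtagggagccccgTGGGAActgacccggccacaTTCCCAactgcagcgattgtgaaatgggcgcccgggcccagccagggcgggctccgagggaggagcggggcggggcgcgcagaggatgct
DUSP6 -18.4 kb, chr12:89370849-89371049: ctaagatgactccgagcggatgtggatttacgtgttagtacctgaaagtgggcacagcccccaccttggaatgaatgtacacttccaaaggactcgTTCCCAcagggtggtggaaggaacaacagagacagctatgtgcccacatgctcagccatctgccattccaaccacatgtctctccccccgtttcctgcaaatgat
DUSP6 +2.6 kb, chr12:89349812-89350012: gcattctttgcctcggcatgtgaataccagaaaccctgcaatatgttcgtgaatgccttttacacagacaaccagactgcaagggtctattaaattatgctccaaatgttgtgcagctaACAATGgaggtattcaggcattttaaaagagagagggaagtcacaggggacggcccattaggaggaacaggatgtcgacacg
SPRED2 +65.9 kb, chr2:65366660-65366860: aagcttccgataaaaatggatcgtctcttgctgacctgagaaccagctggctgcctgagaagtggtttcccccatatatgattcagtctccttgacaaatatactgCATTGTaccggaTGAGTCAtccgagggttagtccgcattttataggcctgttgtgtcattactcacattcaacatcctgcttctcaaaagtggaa

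All 3 RBPJ summits held the RBPJ word within 16 bp of the summit base. At SPRY4 it lay 10 to 5 bp before the summit, and at DUSP6 -18.4 kb its reverse complement TTCCCA covered the summit itself. DUSP5 +32.5 kb held TGGGAA and TTCCCA in opposite orientation, 14 bp apart, on either side of the summit. Such a pair, 10 to 20 bp apart, occurred within 100 bp of the summit in 83 of 46601 RBPJ peaks of MB157R iEV (0.178%) and in 1 of the 58 at the 9 genes, a count made after this sequence had been seen. The SPRY1 site held CTTTGT, a reverse SOX word, 7 to 2 bp before the SOX2 summit, and DUSP6 +2.6 kb held ACAATG 19 to 24 bp after the HA-SOX2 summit. At SPRED2 +65.9 kb the SOX word CATTGT and the AP-1 word TGAGTCA lay 6 to 24 bp after the SOX2 summit. SPRY4 -30.6 kb, the second strongest SOX2 site of MB157R iEV in the family, held none of the 4 words.

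SPRY1, an inhibitor of signalling from receptor tyrosine kinases, had the strongest SOX2 site of the family, 21.8 kb downstream of its TSS and outside the gene body (chromosome 4, from 123418215 to 123419072 in MB157R iEV). SOX2 had 16 fragments at its summit in MB157R iN1-ICD cells (interval 9.15 to 26.0, fold 6.20) and 120 in MB157R iEV cells (99.5 to 143, fold 40.9). Divided by the genome background of each list, the ratio of iN1-ICD to iEV was 0.150 (interval 0.0831 to 0.254). HA-SOX2 in MB157 iSOX2 cells had 643 fragments there (594 to 695, fold 184). By fold, the site ranked 13 of 37963 SOX2 peaks and 5 of 108203 HA-SOX2 peaks, so it was among the strongest SOX2 sites of either cell line. RBPJ was called at the same place with 17 fragments in MB157R iEV (fold 4.43) and 23 in MB157 iSOX2 (fold 7.36), and not in MB157R iN1-ICD or MB157 iEV.

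This was the only one of the 44 SOX2 sites at the 9 genes that was called again with NOTCH1-ICD (2.27%, interval 0.0575 to 12.0), against 302 of 37963 (0.796%) over the whole list. It was the 8th of these 302 by fold in MB157R iEV, and its peak was the 85th of 323 by fold in MB157R iN1-ICD. Of the 302, 172 also lay at an HA-SOX2 summit and 243 near an RBPJ summit of MB157R iEV. Since the site served to choose the family, its presence in the list with NOTCH1-ICD is not a finding about the family. SPRY1 had a second SOX2 site with RBPJ 44.02 kb upstream, where the fold was 10.7 for SOX2 in MB157R iEV, 21.96 for HA-SOX2, 7.09 for RBPJ in MB157R iEV and 4.77 for RBPJ in MB157 iSOX2. As at +21.8 kb, no RBPJ peak was called there in MB157R iN1-ICD or MB157 iEV. The strongest RBPJ peaks of SPRY1 lay elsewhere in 3 lists, at +19.5 kb in MB157R iN1-ICD (fold 5.81), at +2.35 kb in MB157R iEV (7.56) and at +2.41 kb in MB157 iEV (6.23). Within 1 kb of the TSS, HA-SOX2 had a peak of fold 4.39, and the RBPJ peaks had folds of 3.38 and 4.12 in MB157R iN1-ICD, 6.02 in MB157R iEV, 5.54 in MB157 iSOX2 and 4.68 in MB157 iEV.

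SPRY4, a Sprouty whose gene is read from the minus strand, carried the strongest RBPJ site of the family, 1.4 kb inside the gene record and 20 bp upstream of the canonical transcript (chromosome 5, summit base 142325041 in 3 of the 4 RBPJ lists and 142325042 in MB157R iEV). RBPJ had 86 fragments in MB157R iN1-ICD (fold 24.8), 142 in MB157R iEV (50.7), 267 in MB157 iSOX2 (61.5) and 204 in MB157 iEV (52.0), which ranked 232, 35, 11 and 34 by fold in the 4 lists. The depth-scaled ratio of MB157R iN1-ICD to MB157R iEV was 0.629 (interval 0.476 to 0.828), that of MB157 iSOX2 to MB157 iEV was 1.03 (0.857 to 1.24), and that of MB157R iEV to MB157 iEV was 0.613 (0.491 to 0.763). The local background, relative to the genome, was 1.43 in MB157R iN1-ICD and 1.00 in MB157R iEV, and 1.65 in MB157 iSOX2 and 1.83 in MB157 iEV. Its part in these ratios was not tested. SOX2 (fold 11.4, 34 fragments) and HA-SOX2 (8.94, 41 fragments) were also called there.

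A second SPRY4 site, 30.61 kb upstream, was mainly a SOX2 site of MB157R. There SOX2 had 61 fragments in MB157R iEV (fold 20.9), HA-SOX2 29 (6.30), and RBPJ 25 in MB157R iEV (9.21) and 12 in MB157 iSOX2 (2.94). No peak was called in either MB157R iN1-ICD list or in MB157 iEV. The strongest HA-SOX2 peak of SPRY4 lay at +19.0 kb, with 49 fragments (fold 14.2).

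SPRY2, the remaining Sprouty of the 9 genes, was bound in MB157R and hardly in MB157. SOX2 had 4 peaks in MB157R iEV with folds of 3.29 to 4.82, all within 1.9 kb of the TSS. RBPJ had 4 peaks in MB157R iN1-ICD (4.91 to 6.76) and 4 in MB157R iEV (2.97 to 9.28), 1 of 10 fragments in MB157 iSOX2 (3.62) and none in MB157 iEV. HA-SOX2 had no peak in the window. The median local background of the SPRY2 peaks was 1.29 to 1.40 times the genome background in the MB157R lists, and 1.00 at the MB157 iSOX2 peak. Its part in the difference was not tested.

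SPRY2 also had a SOX2 site just outside the rule. At +64.5 kb (chromosome 13), SOX2 had 30 fragments in MB157R iN1-ICD (20.2 to 42.8, fold 8.33) and 132 in MB157R iEV (110 to 157, fold 39.6), and RBPJ had 22 and 21 fragments in the same conditions (6.75 and 6.94). Unlike the SPRY1 site, it had no HA-SOX2 peak. Near the 50 kb limit, only peaks outside the body of the gene itself were compared. Of these, 7 lay 45 to 50 kb from its TSS, with folds of 2.77 to 5.53. A further 15 lay 50 to 55 kb away, with folds of 2.90 to 28.1. The highest was an HA-SOX2 peak 53.2 kb downstream of SPRY1. Peaks in the SPRED2 gene body at these distances were left out, since gene-body peaks were counted at any distance.

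**Figure D3:**
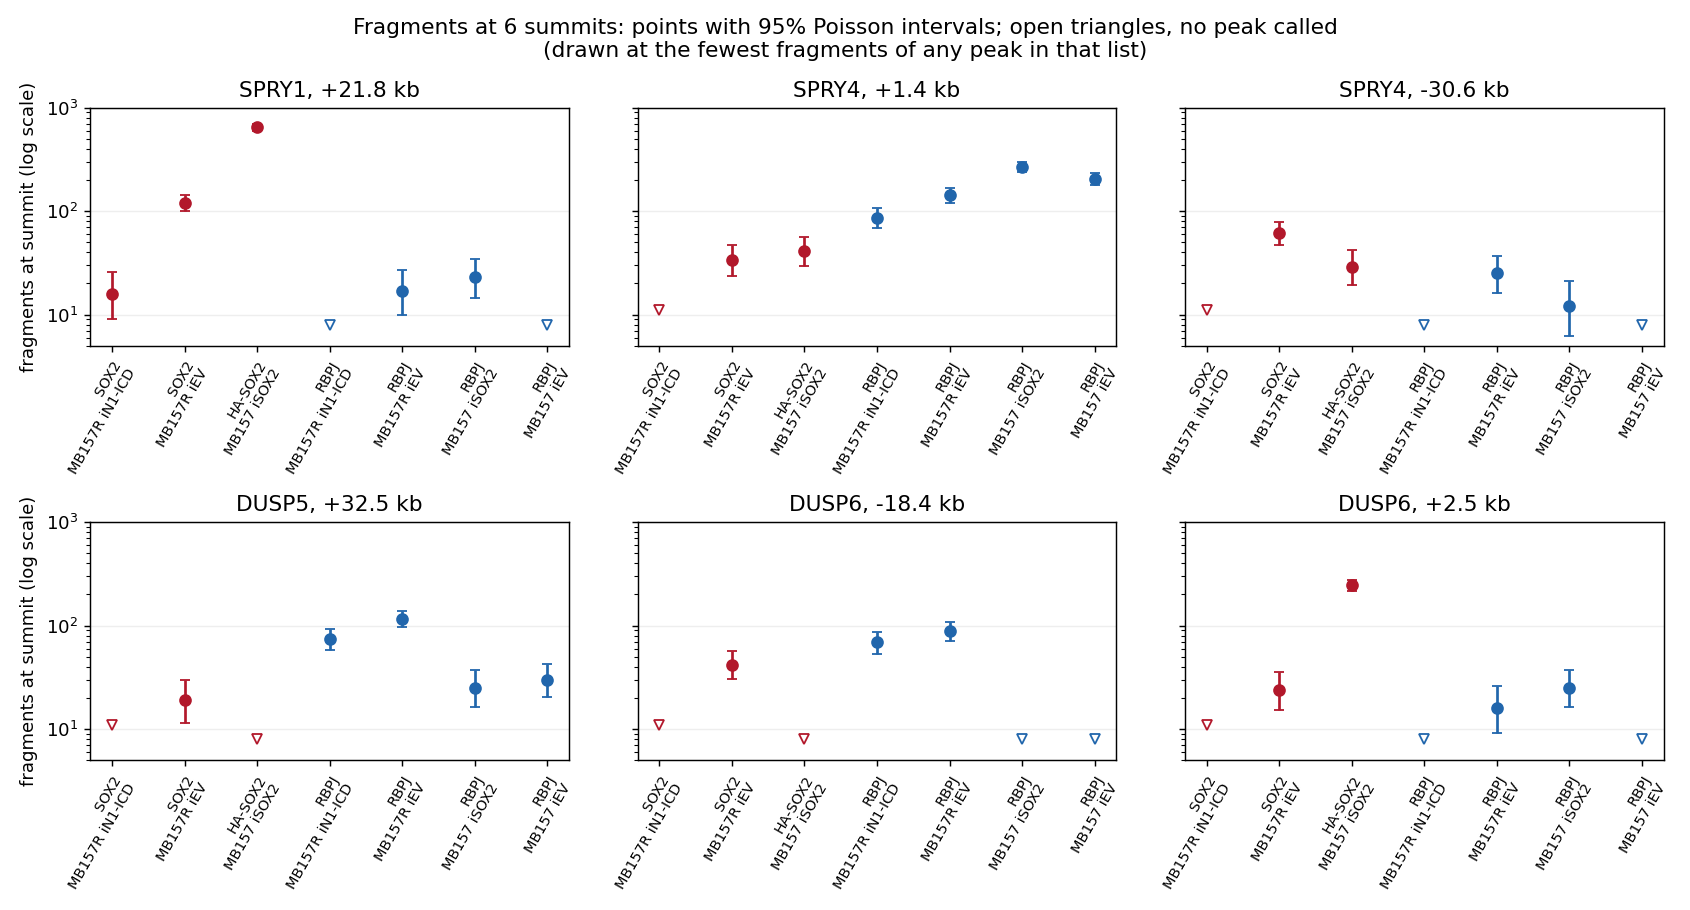
Fragments at the summit (y axis, log scale) of 6 sites in the 7 lists (x axis), with 95% Poisson intervals; an open triangle marks a list without a peak and is drawn at that list's fewest fragments. HA-SOX2 was highest at SPRY1 +21.8 kb (643 fragments) and DUSP6 +2.5 kb (244), SOX2 of MB157R iEV at SPRY1 +21.8 kb (120) and SPRY4 -30.6 kb (61), RBPJ (blue) at SPRY4 +1.4 kb, and DUSP6 -18.4 kb had peaks in 3 MB157R lists and no MB157 list.

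SPRED2 was covered by the most sites. Its 14 SOX2 peaks in MB157R iEV had folds of 2.81 to 15.5, and its 10 RBPJ peaks there had folds of 4.32 to 12.1, each of the 10 within 500 bp of a SOX2 summit. Most of the sites lay in intron 1 of the canonical transcript, which holds a cluster 54.8 to 65.9 kb from the TSS. Other SPRED2 transcripts start within this cluster. The SOX2 summits of MB157R iEV at +65.9 and +54.8 kb lay -8 and -119 bp from the nearest such start. The strongest SOX2 site, at +65.9 kb, had 59 fragments for SOX2 in MB157R iEV (fold 15.5), 33 for HA-SOX2 (5.79), and 16 and 34 for RBPJ in MB157R iN1-ICD and MB157R iEV (4.52 and 9.41), with no RBPJ peak in MB157. HA-SOX2 had 18 peaks, the strongest 12.2 kb upstream (16.0, 70 fragments), where no other list had a peak. RBPJ had 11 peaks in MB157R iN1-ICD, the highest 10.8 at 3.28 kb upstream, 5 in MB157 iSOX2, the highest 9.01 at 0.111 kb upstream, and 6 in MB157 iEV, the highest 5.79 at +0.812 kb. The highest in MB157R iEV (12.1) lay 3.93 kb upstream. At the SPRED2 promoter, SOX2 of MB157R iEV had folds of 4.95 and 5.08 and HA-SOX2 3.65 and 7.37, and RBPJ reached 6.14 in MB157R iN1-ICD and 11.2 in MB157R iEV.

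SPRED1 had its main site 0.948 kb upstream of the TSS, bound in 6 of the 7 lists. The folds were 7.95 for SOX2 in MB157R iEV, 9.56 for HA-SOX2, and for RBPJ 5.09 in MB157R iN1-ICD, 14.4 in MB157R iEV, 8.24 in MB157 iSOX2 and 6.48 in MB157 iEV. The RBPJ summit had 15 fragments in MB157R iN1-ICD and 44 in MB157R iEV, a depth-scaled ratio of 0.354 (interval 0.183 to 0.649), and 16 in MB157 iEV, which gives a ratio of MB157R iEV to MB157 iEV of 2.42 (1.34 to 4.60). At this summit the local background was 1.16 times the genome background in MB157R iEV and 1.01 times in MB157 iEV. Its part in the ratio was not tested. The strongest HA-SOX2 site lay 35.7 kb upstream (fold 21.3, 68 fragments) and was in no other list. The strongest RBPJ peak of MB157R iN1-ICD lay 40.0 kb upstream (7.31, 22 fragments).

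SPRED3 stood apart from the other members. It had no SOX2 peak in MB157R, 6 HA-SOX2 peaks of fold 2.84 to 4.81, and 5 RBPJ peaks in MB157R iN1-ICD, 5 in MB157R iEV, 9 in MB157 iSOX2 and 5 in MB157 iEV, none above 7.83. The strongest RBPJ folds were 5.08 in MB157R iN1-ICD, 6.38 in MB157R iEV, 7.83 in MB157 iSOX2 and 7.21 in MB157 iEV. Its promoter peaks, of HA-SOX2 and of RBPJ in all 4 conditions, had folds of 2.86 to 4.12. Its window was the only one of the 9 with the TSS of other protein-coding genes, namely FAM98C, GGN, PSMD8, RASGRP4 and RYR1, and its strongest RBPJ site lay 26.82 kb upstream in MB157 iSOX2. The strongest RBPJ peak of each list and the strongest HA-SOX2 peak lay inside CATSPERG, a protein-coding gene whose own TSS was outside the window. The median local background of the SPRED3 peaks was 2.38 times the genome background for HA-SOX2, 2.41 for RBPJ in MB157 iSOX2 and 1.97 in MB157 iEV. For RBPJ it was 1.14 in MB157R iN1-ICD and 1.00 in MB157R iEV. Its part in the number of peaks was not tested.

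DUSP6, the cytoplasmic ERK phosphatase of the 9 genes, was bound by RBPJ and SOX2 at a common base in MB157R. At 18.4 kb upstream of the TSS (chromosome 12, base 89370949), in no protein-coding gene body, RBPJ had 69 fragments in MB157R iN1-ICD (fold 23.3) and 88 in MB157R iEV (31.5), and SOX2 had 42 in MB157R iEV (14.5), all 3 summits at the same base. No list of MB157 had a peak there, HA-SOX2 included, although the weakest peaks of those lists rested on 8 fragments. The RBPJ ratio of iN1-ICD to iEV was 0.815 (interval 0.586 to 1.13), so the difference was within counting error. In intron 2, at +2.5 kb (HA-SOX2 summit at +2.6 kb), HA-SOX2 had 244 fragments (fold 54.0), SOX2 in MB157R iEV 24 (8.45), and RBPJ 16 in MB157R iEV (5.58) and 25 in MB157 iSOX2 (7.30), with no RBPJ peak in MB157R iN1-ICD or MB157 iEV. A further shared site 23.5 kb upstream had folds of 11.0 for SOX2 in MB157R iEV and of 9.44 and 10.3 for RBPJ in MB157R iN1-ICD and MB157R iEV. RBPJ was called about 1.6 kb upstream in all 4 conditions, with folds of 7.63 in MB157R iN1-ICD, 9.35 in MB157R iEV, 9.88 in MB157 iSOX2 and 4.48 in MB157 iEV. Within 1 kb of the TSS, HA-SOX2 had a fold of 18.3 at 0.162 kb upstream, and RBPJ had 6.17 in MB157R iN1-ICD, 7.79 in MB157R iEV, 4.76 in MB157 iSOX2 and 4.68 and 4.74 in MB157 iEV, the last its strongest peak in that list. All 7 SOX2 sites of MB157R iEV at DUSP6 had an RBPJ summit within 500 bp.

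DUSP5, a nuclear ERK phosphatase, had the second strongest RBPJ site of MB157R iEV in the family, 32.5 kb downstream of the TSS and outside the gene body (chromosome 10). RBPJ had 74 fragments in MB157R iN1-ICD (fold 27.2), 116 in MB157R iEV (39.99), 25 in MB157 iSOX2 (8.57) and 30 in MB157 iEV (11.9). It was higher in MB157R than in MB157, with a depth-scaled ratio of MB157R iEV to MB157 iEV of 3.40 (interval 2.26 to 5.27) at local backgrounds of 1.06 and 1.00. The part of unequal precipitation between the lists was not tested. The ratio of iN1-ICD to iEV in MB157R was 0.663 (0.488 to 0.895) and that of iSOX2 to iEV in MB157 was 0.657 (0.370 to 1.16), the second of which includes 1. SOX2 was called there with 19 fragments in MB157R iEV (6.76), and HA-SOX2 was not. The strongest SOX2 site of DUSP5 lay further downstream, at +38.4 kb, with 31 fragments (9.15) and RBPJ folds of 7.99 in MB157R iN1-ICD and 4.92 in MB157R iEV. The strongest HA-SOX2 peak lay at +39.7 kb (6.48), and the promoter had RBPJ peaks in MB157R iEV (7.79) and MB157 iSOX2 (3.51) alone.

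DUSP4, the other nuclear phosphatase of the 9 genes and the member on chromosome 8, had weak sites throughout. Its 5 SOX2 peaks in MB157R iEV had folds of 3.65 to 5.32, and its 6 HA-SOX2 peaks 3.56 to 9.87. RBPJ had 6 peaks in MB157R iN1-ICD, the highest 7.26, 8 in MB157R iEV, the highest 8.50, 3 in MB157 iSOX2, the highest 5.38, and 2 in MB157 iEV, the highest 6.53. Its promoter was bound in 6 of the 7 lists, by SOX2 in MB157R iEV (4.39), by HA-SOX2 (4.38), and by RBPJ with folds of 5.08 in MB157R iN1-ICD, 6.38 in MB157R iEV, 3.76 in MB157 iSOX2 and 6.53 in MB157 iEV.

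How many SOX2 sites at the 9 genes coincided with RBPJ sites depended on the distance allowed. These peaks served to choose the genes, and sites of 1 gene are not independent, so the shares are a description. In MB157R iEV, 35 of 44 SOX2 sites (79.5%, interval 64.7 to 90.2) had an RBPJ summit less than 500 bp away, against 57.0% of all SOX2 sites, and 35 of 58 RBPJ sites (60.3%, 46.6 to 73.0) had a SOX2 summit, against 46.4%. Of the 35 SOX2 sites, 10 lay at SPRED2. With summits less than 100 bp apart, the SOX2 share was 45.5%, against 30.7% of all SOX2 sites, and the RBPJ share 34.5%, against 25.0%. The paired summits lay 89 bp apart at the median, and those of all pairs 90 bp. In MB157 iSOX2, 20 of 64 HA-SOX2 sites (31.2%, 20.2 to 44.1) lay near RBPJ, against 15.0%, and 20 of 34 RBPJ sites (58.8%, 40.7 to 75.4) near HA-SOX2, against 47.1%, at a median distance of 72.5 bp, with 114 bp over all pairs. The unpaired SOX2 sites of MB157R iEV were 4 at SPRED2, 2 at DUSP5 and 1 each at SPRY2, SPRED1 and DUSP4. Joining summits less than 500 bp apart over the 7 lists gave 119 places, of which 46 had both factors, 39 had SOX2 or HA-SOX2 alone and 34 RBPJ alone, and 62 came from 1 list. The 5 places bound in 6 lists were those at SPRY4 +1.4 kb, SPRED1 0.948 kb upstream of its TSS, SPRED2 at its promoter and at +1.9 kb, and the DUSP4 promoter.

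**Figure D4:**
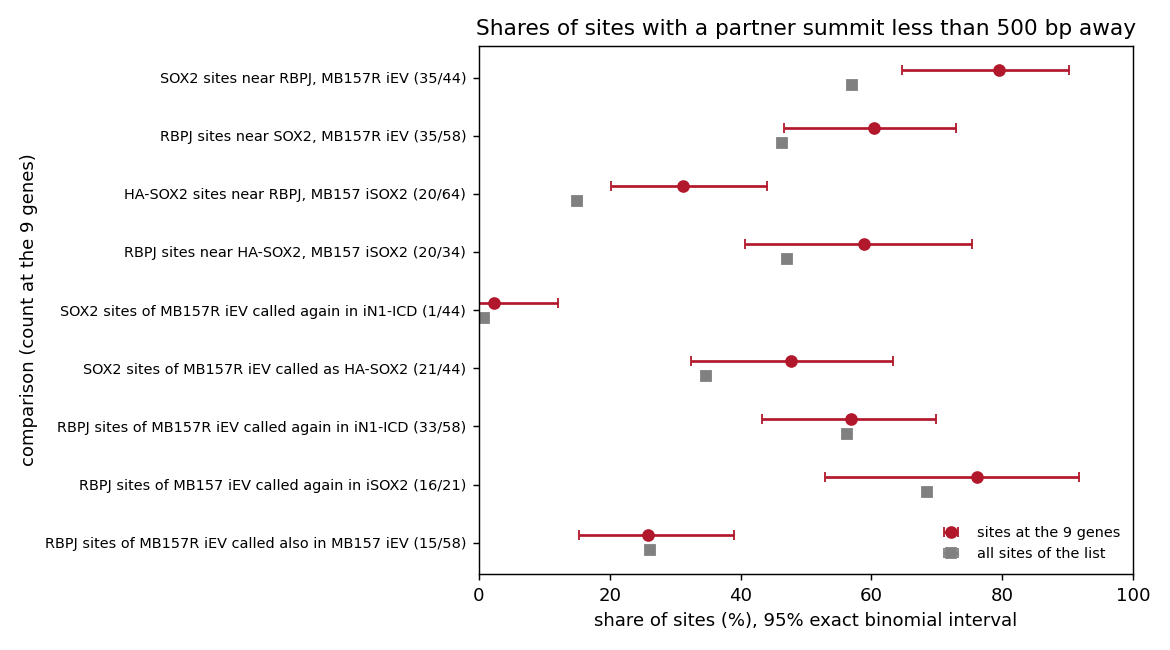
Share of sites (x axis, %) with a partner summit less than 500 bp away for 9 comparisons (y axis, with the count at the 9 genes); red points are sites at the 9 genes and grey squares all sites of the same list, with exact 95% binomial intervals for counting error. SOX2 sites near RBPJ made up 79.5% at the 9 genes, against 57.0% of the list, RBPJ sites near SOX2 60.3% against 46.4%, and HA-SOX2 sites near RBPJ 31.2% against 15.0%; as the genes were chosen by such peaks, these are no test.

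Of the 44 SOX2 sites of MB157R iEV, 21 were also HA-SOX2 sites in MB157 iSOX2 (47.7%, interval 32.5 to 63.3), against 34.7% of all. They included 3 of 3 at SPRY1 and 9 of 14 at SPRED2, and 0 of 4 at SPRY2. For RBPJ, the shares called again between conditions lay near those of the whole lists. Of 58 RBPJ sites in MB157R iEV, 33 were called again in MB157R iN1-ICD (56.9%, 43.2 to 69.8), against 56.3%, and 34 of the 50 sites of MB157R iN1-ICD were in MB157R iEV (68.0%, 53.3 to 80.5), against 70.7%. Of 21 sites in MB157 iEV, 16 were called again in MB157 iSOX2 (76.2%, 52.8 to 91.8), against 68.5%, and 16 of the 34 of MB157 iSOX2 were in MB157 iEV (47.1%, 29.8 to 64.9), against 50.0%. Of the 58 sites in MB157R iEV, 15 were also in MB157 iEV (25.9%, 15.3 to 39.0), against 26.2%. With all 4 RBPJ lists shortened to the 25243 strongest peaks, the 9 genes had 34 peaks in MB157R iN1-ICD, 39 in MB157R iEV, 22 in MB157 iSOX2 and 21 in MB157 iEV.

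**Figure D5:**
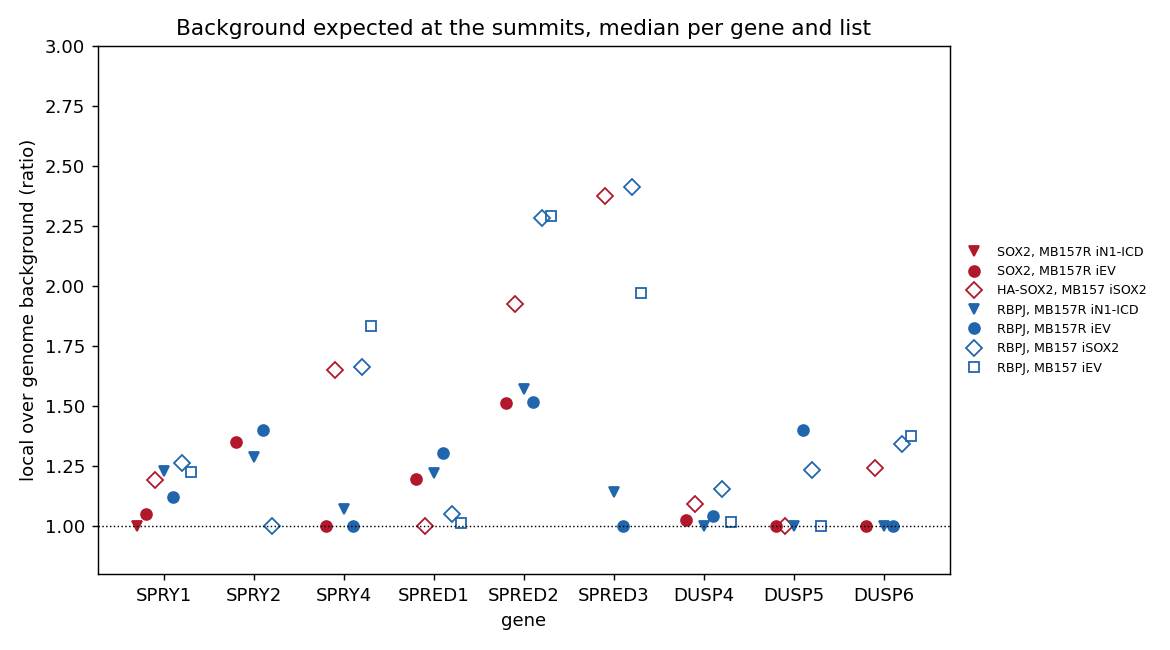
Background expected at the summits divided by the genome background of the list (y axis, ratio), median per gene (x axis) and list; filled symbols are MB157R lists, open symbols MB157 lists, red SOX2 or HA-SOX2 and blue RBPJ. SPRED3, SPRED2 and SPRY4 had higher values in MB157 (up to 2.41) than in MB157R (up to 1.57), and SPRY2 the reverse. By these medians, each over the list's own summits, DUSP6 (up to 1.38) was also higher in MB157, and SPRED1 (up to 1.31) in MB157R.

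The local background was taken as the median over each list's own summits, which lie at different places. By that measure it differed between the cell lines at several members. It was 1.92 to 2.29 times the genome background at SPRED2 in the MB157 lists, against 1.51 to 1.57 in the MB157R lists, and over all peaks of these lists the median was 1.24 to 1.38 in MB157 and 1.29 to 1.37 in the MB157R lists other than that of SOX2 with NOTCH1-ICD. This background enters the fold of each peak as its divisor, and the number of copies of each gene in the cell lines was not measured here. At DUSP6 the median was 1.24 to 1.38 in the MB157 lists, against 1.00 in the MB157R lists. At the RBPJ summits about 1.6 kb upstream of DUSP6, called in both cell lines, the background was 1.68 in MB157R iEV and 1.60 in MB157 iEV. At SPRED1 the median was 1.00 to 1.05 in the MB157 lists, against 1.20 to 1.31 in the MB157R lists. Comparisons of MB157R with MB157 at SPRED3, SPRED2, SPRY4, SPRY2, DUSP6 and SPRED1 may therefore carry such a difference, at DUSP6 depending on the summits compared. Its part was not tested.

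The words were also counted at all summits of the 9 genes and of the whole lists. Within 100 bp of the summit, a SOX word occurred at 19 of 44 SOX2 sites of MB157R iEV (43.2%, against 43.1% of the list) and at 28 of 64 HA-SOX2 sites (43.8%, interval 31.4 to 56.7, against 60.4%). The RBPJ word occurred at 16 of 58 RBPJ sites of MB157R iEV (27.6%, 16.7 to 40.9, against 33.1%) and at 8 of 44 SOX2 sites (18.2%, against 18.5%). The AP-1 word occurred at 5 of 44 SOX2 sites (11.4%, 3.79 to 24.6, against 31.0%) and at 6 of 58 RBPJ sites (10.3%, 3.89 to 21.2, against 18.5%). The ETS word occurred at 2 of 44 SOX2 sites (4.55%, against 2.64%). Within 50 bp, the AP-1 word occurred at 9.09% of SOX2 sites (interval 2.53 to 21.7), against 18.9% of the list, and the SOX word at 31.2% of HA-SOX2 sites (20.2 to 44.1), against 43.0%, so both intervals then contained the share of the list. A match is a description of the letters and not a site of binding.

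Other genes of the pathway were also bound. The median number of SOX2 peaks in MB157R iEV per gene was 1 over the 7 other MAP kinase phosphatases. It was 2 over 18 genes grouped as other negative regulators of receptor tyrosine kinases and RAS, and 4.5 over 14 grouped as FGF and EGF family ligands. It was 3.5 over 16 receptor tyrosine kinases and 2 over 19 adaptors and kinases of the cascade. Over 14 transcription factors and targets downstream of ERK it was 5, against 4 at the 9 genes. Genes with at least 1 such peak numbered 5 of 7, 15 of 18, 12 of 14, 14 of 16, 16 of 19 and 14 of 14 in these lists. The ligand list included FGFBP1, which encodes an FGF-binding protein. The windows hold the whole gene body, and these counts were not scaled to window length. The strongest SOX2 site lay 1130 kb from the TSS at ERBB4, 671 kb at NRG1 and 255 kb at IGF1R. The part of gene length in the counts was not tested. Among the other phosphatases, DUSP1 had the highest SOX2 fold in MB157R iEV (14.1), and NF1, which encodes the neurofibromin that SPRED proteins recruit, reached 16.1 for SOX2 and 18.3 for RBPJ in MB157R iEV and 62.3 for HA-SOX2. The highest SOX2 folds of the other lists were 17.2 at AREG, which encodes an EGF receptor ligand, 23.9 at ERBB4, a receptor of the EGF receptor family, 12.0 at KSR1, a scaffold of the RAF and MEK kinases, and 24.7 at IER3. The next highest in each list were 8.49 at DUSP10, 15.2 at IL17RD, 14.5 at NRG1, 14.8 at IGF1R, 8.38 at SOS2 and 17.5 at ETV1. In MB157R iN1-ICD, SOX2 peaks were called at 2 of these 88 genes, ERBB4 (fold 4.86) and KSR1 (3.72), and both were sites kept from MB157R iEV; 1.41% of all genes had such a peak.

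The genes most like SPRY1 in the highest fold per list, taken over the 7 lists as Euclidean distance on the log2(1 + fold) scale and more than 1 Mb from SPRY1, were PLEKHM3 (1.28), CDKAL1 (1.33), ITGB8 (1.35), SOX6 (1.37) and BCAS3 (1.40). All 5 had SOX2 peaks in MB157R iN1-ICD (folds of 4.40 to 10.4), in MB157R iEV (20.7 to 52.4) and for HA-SOX2 (95.9 to 154), with RBPJ folds between 4.99 and 12.6. These genes were chosen by the same folds, so their shared pattern is a description of the choice.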

How the data were processed

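The authors aligned reads to hg38 (BWA) and pooled a group's libraries before MACS2 called its narrow peaks over input, both tools within the nf-core/chip-seq pipeline. The deposited peak lists give each peak's position, its summit, the fold enrichment at the summit (a ratio) and −log10 of the p-value and of the q-value, all with q under 0.05. Peaks were assigned to GENCODE 44 protein-coding genes of chromosomes 1 to 22 and X with Python 3.11.15, pandas 2.3.3 and scipy 1.17.1. Summits less than 500 bp apart counted as the same site. The whole number of fragments was solved from the fold and the p-value by the Poisson distribution, a step tested on simulated data. Depth-scaled ratios divide fragments by the smallest background of each list and do not correct for unequal efficiency of precipitation. Share intervals are exact (Clopper-Pearson) and fragment intervals exact Poisson. PCR reads are not independent molecules, so they cover counting error alone. The 9 genes, the pathway lists and the choices of analysis were made with earlier results of these data known. All 9 genes are described, with the strongest peak per list, promoter peaks (by range or the stronger ones where a gene had several) and kept sites. Of each pathway list, the genes named had the highest SOX2 folds in MB157R iEV or a SOX2 peak in MB157R iN1-ICD.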

Additional observations from a re-analysis of the deposited data

How the results depend on the processing

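Of 158 alternatives run over 37 results, 138 left the value within its counting interval (shares) or within 1.5 times (counts), and 20 did not. With summits less than 100 bp apart, SOX2 sites near RBPJ in MB157R iEV fell to 45.5%, RBPJ sites near SOX2 to 34.5%, SOX2 sites also called as HA-SOX2 to 27.3%, RBPJ sites of MB157R iEV called again in iN1-ICD to 36.2% and those of MB157 iEV called again in iSOX2 to 33.3%, and the last was 52.4% at 250 bp. With a −log10 q of at least 5, RBPJ peaks at the 9 genes numbered 33 in MB157R iN1-ICD, 19 in MB157 iSOX2 and 11 in MB157 iEV. Within 100 kb of the TSS, there were 2 SOX2 peaks in MB157R iN1-ICD, both kept from MB157R iEV (2 of 66 sites), 102 HA-SOX2 peaks and 36 RBPJ peaks in MB157 iEV. With lists of equal length, there were 20 HA-SOX2 peaks and 22 RBPJ peaks in MB157 iSOX2, 20.6% of RBPJ sites lay near HA-SOX2 and 20.5% of SOX2 sites were HA-SOX2 sites. With 50 bp to each side of the summit, the SOX word share was 25.0% at SOX2 sites of MB157R iEV, 31.2% at HA-SOX2 sites and 12.1% at RBPJ sites of MB157R iEV, against 31.2%, 43.0% and 10.2% of the whole lists. The promoter count from the canonical start, added after the data were seen, moved no count by over 1.5 times. No paired analysis was possible because peaks were called on pooled replicates, and for the same reason no replicate could be left out. Fewer peaks in a list can come from fewer fragments, and sites under about 8 fragments are not seen.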
